A study of Oncorhynchus mykiss with 13 samples.

Results

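Ovarian gene expression was compared between rainbow trout females in oocyte maturation and females in post-vitellogenesis. The members of this comparison are 10 of the 13 arrays of the series, 6 from oocyte maturation (females 25 to 30) and 4 from post-vitellogenesis (females 13, 14, 15 and 31), chosen by the ovarian stage that the labels give. The 3 remaining arrays, of late vitellogenesis, were left out. All fish were 2-year-old females of an autumn-spawning strain in their first reproductive season, each female gave 1 sample of full ovarian tissue, and no treatment was given. The oocytes of the maturation samples had clear yolk, while those of the post-vitellogenesis samples had yolk of unchanged appearance. In the second kind the germinal vesicle could already lie at or near the edge of the oocyte, and the label of female 14 places it in the periphery. The labels give no finer stage for the other females.

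In the trout ovary, each full-grown oocyte sits inside a follicle of granulosa and theca cells. During post-vitellogenesis the follicle stops making mainly estrogens and gains the capacity to make the maturation-inducing steroid. Under that steroid the oocyte resumes meiosis, its nucleus (the germinal vesicle) breaks down, the egg takes up water and the follicle wall prepares to open at ovulation. Whole ovary was measured, so a level is an average over oocytes, follicle cells, vessels and stroma, and fewer cells of a type cannot be told apart from less RNA per cell. Among the named clones, aromatase was taken as the marker of granulosa cells, and smoothelin and caldesmon as those of smooth muscle. Whether these clones are expressed only in those cells was not tested. Markers of the oocyte, of theca cells and of blood carry no name in the sources used here.

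Radiolabelled cDNA of each female was hybridized to 1 nylon membrane that carried PCR products of cDNA clones. A value is the authors' ratio of a spot's signal, corrected for the DNA in the spot, to the median of its array. Of 9023 clones, the 8084 with a ratio above 0 on all 10 arrays were tested, 297 were listed at 0 on all 10 and 642 on some of them. Of these last, 322 were at 0 on some maturation arrays and above 0 on every post-vitellogenesis array, and 20 showed the reverse. No clone (0) was at 0 on every array of one stage and above 0 on every array of the other. The number of spots at 0 ran from 498 (female 25) to 932 (female 30). Female 26, also maturing, had 878, and every array other than those of females 26 and 30 had 689 or fewer. Oocyte maturation also had more arrays than post-vitellogenesis, and so more chances of a 0. How far single arrays and the number of arrays account for the 322 against 20 was not tested. The study excluded spots with too little signal from the oligonucleotide that measures their DNA. Whether a 0 marks such a spot or a low expression was not tested. Across clones, the log2 ratios of 2 arrays correlated at 0.913 to 0.980 within oocyte maturation, at 0.943 to 0.980 within post-vitellogenesis and at 0.901 to 0.958 between the stages. Female 30 was the least like the others of her stage (0.913 to 0.928). The lists used below hold 90 clones, of which 10 have no protein match. The others are called by their match, mostly a protein of another species. A spotted cDNA can also bind the transcripts of near-identical gene copies, which these ratios do not separate.

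At an adjusted p under 0.05 in limma (two-sided), 308 clones (3.81%) differed between the stages. In oocyte maturation 134 clones were higher (1.66% of those tested), while 174 (2.15%) were lower. The changes upward were larger: 50 of the higher clones and 22 of the lower ones reached 2-fold, and the median fold was 1.78 for the higher and 1.58 for the lower clones. Every maturing female exceeded every post-vitellogenic one in 225 clones (2.78%), and the reverse held in 234 (2.89%). Of the called clones, 111 of the higher and 126 of the lower ones were free of overlap. Over all clones the median log2 difference was 0.01 and the median SD between females was 0.22 in oocyte maturation and 0.18 in post-vitellogenesis (log2). The clones called higher varied more among maturing females (median SD 0.28) than among post-vitellogenic ones (0.17). Of the 308 clones, 72 carry one of the study's names or entries and 236 do not. The majority of lower clones was not stable. At an adjusted p under 0.007 the split was 47 higher and 23 lower. At 0.05 higher clones were the majority without any one of females 25, 27, 28, 29, 14 and 15 (from 127 higher and 121 lower without 28 to 96 and 51 without 14), and lower clones without 26, 30, 13 or 31.

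**Figure D1:**
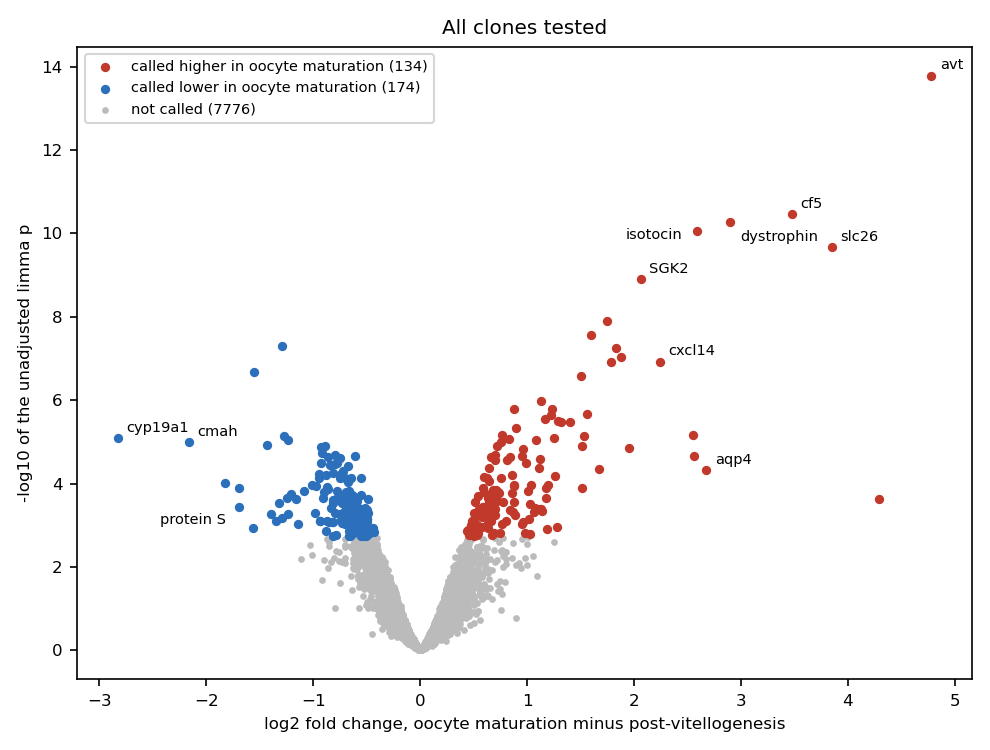
Each point is 1 of the 8084 clones, with the log2 difference (oocyte maturation minus post-vitellogenesis) on the horizontal axis and -log10 of the unadjusted limma p on the vertical axis. The 134 clones called higher reach a log2 difference of 4.78 (avt), and the 174 called lower reach -2.83 (cyp19a1).

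The study picked its listed clones on these same arrays for a difference between stages, so the counts below are no independent evidence of a direction. Of the 89 listed clones tested, 55 were higher, 17 lower and 17 not called, where 1.66% of all clones were higher and 2.15% lower. Of the 43 tested clones of its second cluster, which held vasotocin and pendrin, all 43 were higher (median log2 difference 1.23). Of the 14 clones of the cluster with the aquaporin clones, 12 were higher and 2 not called (median 1.02). Without female 15 or 13 this fell to 5 or 7 higher, and with clones listed at 0 kept in the fit to 1. The listed clones tested have no 0 of their own. Keeping zeros brings other clones into the adjustment and into the spread that limma shares between clones. Of the 32 clones of the study's first cluster, which held aromatase, 17 were lower and 15 not called (median -0.60). The lower ones numbered 4 without female 15, 5 without 13 or 14, 9 to 13 without any one of 25 to 29, 21 without 30 and 26 without 31, and 1 with zeros kept. Welch's test with the same adjustment, which does not share the spread between clones, kept 22 of the 55 higher calls (avt, isotocin, slc26, cf5, both SGK2 clones and the first dystrophin clone among them) and 0 of the 17 lower ones, of which 14 had an unadjusted p under 0.05. One further clone of the second cluster, similar to noelin-2, was not analysed here. The roles used below divide the same 89 clones by what their matches do.

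Hormones, signalling peptides and their receptors were higher in oocyte maturation for 7 of 7 clones, with a median log2 difference of 1.78 against 0.01 over all clones. All 7 are of the study's second cluster, and over all clones 1.66% were called higher. Vasotocin (avt, clone 1RT34L03_B_F02), the fish counterpart of the antidiuretic hormone, had ratios from 6.53 to 13.3 (median 10.96) in maturing females, against 0.348, 0.440, 0.344 and 0.372 in post-vitellogenic females 13, 14, 15 and 31. The lowest maturing female, 29, was still far above every post-vitellogenic one. The difference was 27.5-fold (95% interval 21.2 to 35.6, log2 difference 4.78 ± 0.18 SE, adjusted p = 1.3e-10 from limma), the largest among all clones tested.

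Isotocin (1RT113L09_B_F05), the fish counterpart of oxytocin, ran from 2.86 to 5.35 (median 4.57) in maturing females, against 0.734, 0.737, 0.608 and 0.746 in females 13, 14, 15 and 31. It was 6.01-fold higher (log2 difference 2.59 ± 0.17 SE, adjusted p = 1.7e-07 from limma). For both hormones, females 29 and 30 were the lowest of the maturing females and the stages did not overlap. Both hormones are made as precursors with a neurophysin, and both clones matched chum salmon sequences.

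The cxcl14-like clone (tcba0028.m.20), of a chemokine which attracts immune cells in mammals, ran from 2.17 to 4.45 (median 3.42) in maturing females, against 0.610, 1.246, 0.438 and 0.788 in females 13, 14, 15 and 31 (4.72-fold, adjusted p = 7.6e-05 from limma). Female 14 was the highest and female 15 the lowest of the post-vitellogenic females, with no overlap between the stages. The RGS18-like clone, of a protein which shortens signalling by G proteins, was 2.44-fold higher (adjusted p = 0.0011 from limma), with female 29 at 0.638 and the other maturing females from 1.11 to 1.38. Further clones of this role were 1.51-fold and 1.86-fold higher, also without overlap.

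Of 7 clones for the transport of water, ions and metals, 5 were higher, 0 were lower and 2 were not called (median log2 difference 1.26). The shares over all clones tested were 1.66% higher and 2.15% lower. The clone similar to pendrin (slc26, tcbk0013.j.13), which exchanges chloride for other anions, ran from 2.63 to 8.90 (median 7.15) in maturing females, against 0.408, 0.432, 0.405 and 0.481 in females 13, 14, 15 and 31. It was 14.4-fold higher (95% interval 9.72 to 21.3, adjusted p = 3.5e-07 from limma). The post-vitellogenic females were tightly grouped, and maturing female 29, at 2.63, lay well under the next one (5.65).

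Both clones similar to aquaporin 4 (aqp4), a water channel, set female 14 apart. Clone tcbk0036.e.03 ran from 3.48 to 11.6 (median 6.51) in maturing females, against 0.742, 3.98, 0.699 and 0.749 in females 13, 14, 15 and 31 (5.89-fold, adjusted p = 0.0036 from limma). Clone tcbk0056.f.03 ran from 2.38 to 7.42 (median 4.43) in maturing females, against 0.428, 3.02, 0.328 and 0.420 in the same order (6.40-fold, adjusted p = 0.0058). In both clones female 14 lay above the lowest maturing female, 26, while the other post-vitellogenic females lay far below. Without female 14 the log2 differences were 3.17 and 3.42, against 2.56 and 2.68 with her. With clones listed at 0 kept in the fit, neither passed (adjusted p = 0.068 and 0.075), nor by Welch's test (0.21 and 0.26).

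The other transport clones concern metals. The clone of the copper importer CTR1 (tcbk0046.i.17) ran from 1.42 to 2.92 (median 1.88) in maturing females, against 0.842, 0.882, 0.778 and 0.804 in females 13, 14, 15 and 31 (2.39-fold, adjusted p = 0.0021 from limma). That of hephaestin, a copper-dependent ferroxidase, was 1.63-fold higher (adjusted p = 0.015), a call that was lost without female 13 or 15 (adjusted p = 0.054 to 0.059) and with zeros kept (0.067). For transferrin receptor 1 (tcba0006.l.19), which imports iron, the clone ran from 1.45 to 3.00 (median 2.50) in maturing females, against 4.84, 4.77, 9.53 and 2.30 in females 13, 14, 15 and 31. It was not called (adjusted p = 0.065). Female 31 lay among the maturing females, and without her it passed (adjusted p = 0.0058 from limma). The ATPase IF clone, of a phospholipid transporter, was not called either (adjusted p = 0.078, and 0.0086 without female 31).

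**Figure D2:**
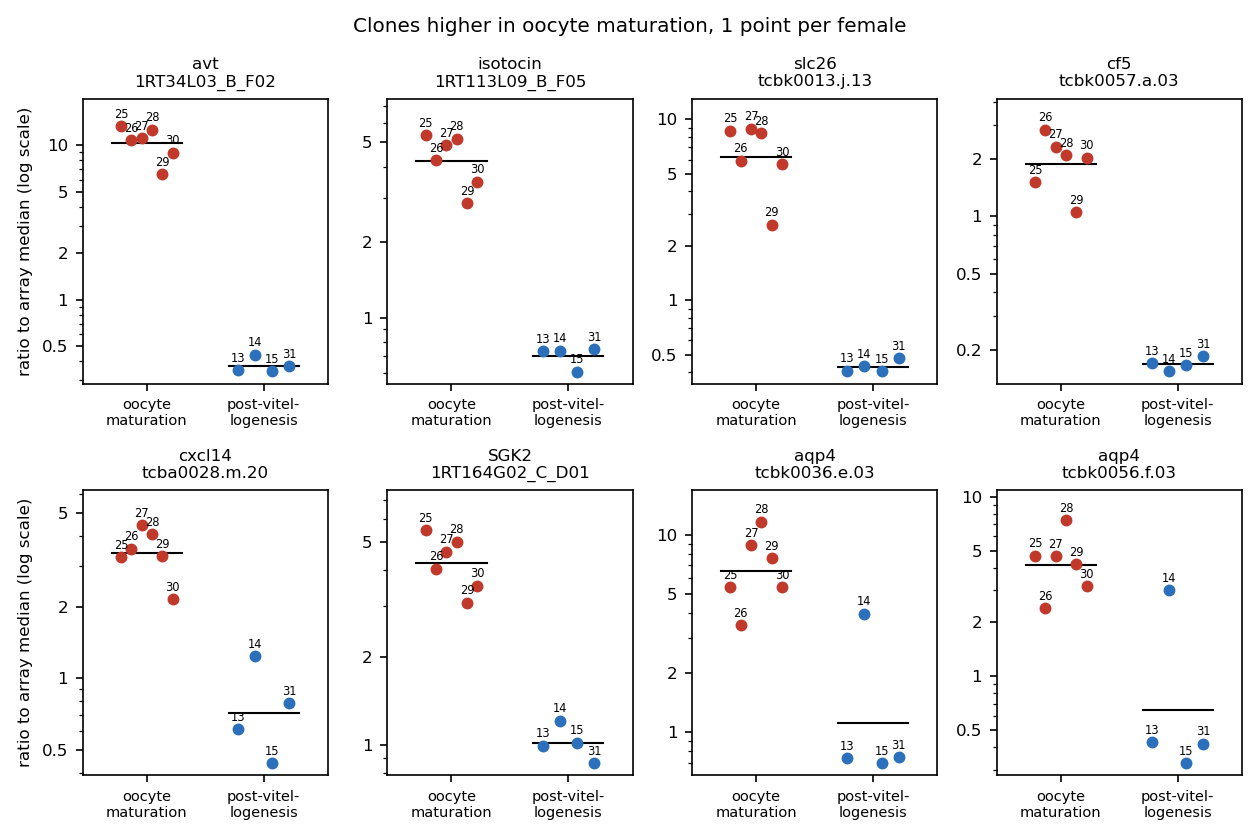
The ratio to the array median (log scale) is plotted for 8 clones, 1 point per female with her number, for oocyte maturation on the left and post-vitellogenesis on the right, and the bar is the geometric mean. In both aqp4 panels female 14, at 3.98 and 3.02, lies inside the range of the maturing females, and in the other 6 panels the stages do not overlap.

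Clones for coagulation and peptidases moved both ways: 6 of 10 were higher, 3 were lower and 1 was not called (median log2 difference 0.67). The shares over all clones tested were 1.66% higher and 2.15% lower. The clone similar to coagulation factor V (cf5, tcbk0057.a.03), a cofactor in thrombin formation, ran from 1.05 to 2.85 (median 2.06) in maturing females, against 0.171, 0.154, 0.166 and 0.185 in females 13, 14, 15 and 31. It was 11.2-fold higher (95% interval 8.16 to 15.3, adjusted p = 1.4e-07 from limma), with no overlap. The post-vitellogenic ratios lay close to the lowest ratio of any tested clone on those arrays (0.103 to 0.126), and a pseudocount of 0.1 brought the log2 difference to 2.89, against 3.48 without it.

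Another clone of this role is similar to adam22, a membrane protein of the disintegrin and metalloproteinase family, and peptidase activity was not measured. It ran from 1.98 to 3.45 (median 2.76) in maturing females, against 1.05, 1.29, 0.993 and 1.19 in females 13, 14, 15 and 31 (2.35-fold, adjusted p = 7.5e-04 from limma). The match to clotting factor C, a serine protease known from horseshoe crabs, was 2.24-fold higher (adjusted p = 0.0011), also without overlap. Its post-vitellogenic ratios, 0.192 to 0.282, lay near the low end of those arrays, and its fold ran from 1.87 to 2.52 over the settings. Serine protease 23 (sp23) ran from 3.10 to 6.95 (median 4.15) in maturing females, against 1.66, 3.33, 1.86 and 2.10 in females 13, 14, 15 and 31. It was 2.04-fold higher (adjusted p = 0.017 from limma), although female 14 lay above maturing female 29. Without female 13 or 15 sp23 did not pass (adjusted p = 0.065 to 0.079), nor with zeros kept (0.094). PSD2, a subunit of the 26S proteasome, was 1.61-fold higher (adjusted p = 0.012, and 0.054 without female 15).

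The clones similar to vitamin K-dependent protein S, an anticoagulant cofactor, were lower. Clone tcbk0006.j.01 ran from 0.784 to 1.52 (median 1.06) in maturing females, against 5.53, 3.07, 7.22 and 1.20 in females 13, 14, 15 and 31 (3.23-fold lower, adjusted p = 0.020 from limma). Clone tcay0036.n.19 ran from 0.974 to 1.75 (median 1.51) in maturing females, against 6.53, 3.86, 8.60 and 1.20 in the same order (2.96-fold lower, adjusted p = 0.037). Female 31 lay inside the range of the maturing females in both clones. Without her the folds were 4.602 and 4.43. The first call was lost without female 13 or 15 (adjusted p = 0.069 to 0.086), and the second without any one of the other females except 30 (0.055 to 0.16). A variance model with an intensity trend and robust estimation called neither (adjusted p = 0.074 and 0.11), nor did the fit with zeros kept (0.12 and 0.16).

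The microsomal dipeptidase clone was 1.48-fold lower (adjusted p = 0.040 from limma), a call lost without female 26, 27, 28, 29, 13, 14 or 15 (adjusted p = 0.060 to 0.18), with a pseudocount (0.051) and with zeros kept (0.091). The clone similar to a signal peptide peptidase ran from 0.899 to 1.21 in maturing females, against 1.29 to 1.87 in post-vitellogenic females, with no overlap, and was not called (adjusted p = 0.053, and 0.034 without female 31).

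Steroid and P450 enzymes were lower or not called in all but 1 of 8 clones: 4 were lower, 3 not called and 1 higher (median log2 difference -0.70). The shares over all clones tested were 2.15% lower and 1.66% higher. Ovarian aromatase (cyp19a1), which turns androgens into estrogens, gave the largest fall of all clones tested. Clone tcbk0013.n.16 ran from 0.315 to 0.650 (median 0.338) in maturing females, against 3.61, 1.79, 8.99 and 0.963 in females 13, 14, 15 and 31 (7.09-fold lower, 95% interval 3.75 to 13.4, adjusted p = 0.0021 from limma). Clone tcac0004.f.21 ran from 1.24 to 2.09 (median 1.35) in maturing females, against 6.62, 3.33, 13.4 and 2.24 in the same order (3.54-fold lower, interval 2.11 to 5.94, adjusted p = 0.0096).

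The stages did not overlap in either aromatase clone. The order of the post-vitellogenic females was the same in both, with 15 the highest, then 13, 14 and 31. Post-vitellogenesis held a wide range of aromatase levels. In the first clone its lowest female, 31, lay at 0.963, above the highest maturing female, 30, at 0.650. In the second clone she lay at 2.24, just above the highest maturing female, 27, at 2.09. With 1 female left out the folds ran from 4.77 (without female 15) to 10.04 (without female 31) in the first clone and from 2.56 to 4.65 in the second, and each passed every time. With zeros kept neither passed (adjusted p = 0.061 and 0.084), nor did either by Welch's test (0.24 and 0.29).

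Other enzymes of this role changed less. The sulfotransferase 3 clone, of a cytosolic family that adds sulfate to steroids and other small molecules, ran from 0.493 to 0.678 in maturing females, against 0.708 (female 31) to 1.30 (female 14) in post-vitellogenic females (1.76-fold lower, adjusted p = 0.016 from limma, and 0.063 to 0.065 without female 13 or 14). The retinol dehydrogenase 3 clone was 1.74-fold lower (adjusted p = 0.023, and 0.054 to 0.10 without female 13, 14 or 15), with female 31 again inside the range of the maturing females. Zeros kept in the fit ended both calls (adjusted p = 0.078 and 0.095). The CYP8B1-like clone, of a sterol hydroxylase of bile acid synthesis in mammals, was the 1 that was higher, at 0.499 to 1.21 in maturing females, against 0.378 to 0.449 in post-vitellogenic females (2.18-fold, adjusted p = 0.0040, and 0.053 with zeros kept).

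The clones that were not called held cyp1a3, a P450 known for its induction by aromatic compounds (1.51-fold lower, adjusted p = 0.051), a clone similar to CYP2J3, a fatty acid epoxygenase in rat (1.47-fold lower, 0.093), and a clone similar to NADPH-cytochrome P450 reductase, which supplies electrons to these enzymes (1.29-fold lower, adjusted p = 0.22 from limma). In these 3 clones the ranges of the stages overlapped. Without female 31 the clones of cyp1a3 and CYP2J3 passed (adjusted p = 0.011 and 0.035), and that of cyp1a3 also without female 30 (0.029).

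Of 10 clones for lipids, lysosome, redox and small-molecule metabolism, 7 were higher, 2 lower and 1 not called (median log2 difference 1.19). The shares over all clones tested were 1.66% higher and 2.15% lower. The clone similar to cmah (tcbk0034.l.08), which hydroxylates CMP-sialic acid, ran from 1.18 to 3.56 (median 1.78) in maturing females, against 8.16, 12.4, 12.6 and 3.88 in females 13, 14, 15 and 31 (4.47-fold lower, 95% interval 2.72 to 7.35, adjusted p = 0.0023 from limma). Female 31 was the lowest post-vitellogenic female and lay just above maturing female 29. The call held with each female left out, and was lost with zeros kept (adjusted p = 0.053) and by Welch's test (0.14). The other lower clone, similar to glutathione S-transferase P, was 1.60-fold lower (adjusted p = 0.023, against 0.055 to 0.12 without female 27, 13, 14 or 15 and 0.079 with zeros kept).

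Upward, a clone similar to ELOV1, which lengthens very long fatty acids, ran from 2.13 to 9.69 (median 6.76) in maturing females, against 1.48, 1.34, 1.60 and 1.53 in females 13, 14, 15 and 31 (3.88-fold, adjusted p = 0.0027 from limma, and 0.059 with zeros kept). The spread was among the maturing females, with 26 the lowest. Glutathione peroxidase 4, which reduces lipid peroxides, ran from 0.943 to 2.84 (median 2.21) in maturing females, against 0.785, 0.797, 0.588 and 0.646 (2.85-fold, adjusted p = 0.0026, and 0.052 with zeros kept). The purine nucleoside phosphorylase clone was also 2.85-fold higher (adjusted p = 0.011, and 0.054 without female 15), with female 14, at 1.73, above maturing female 29, at 1.28. With zeros kept this last clone did not pass (adjusted p = 0.084). The remaining higher clones of this role were 1.57-fold and 1.94-fold higher, the first of which, 10-formyltetrahydrofolate dehydrogenase, was not called without female 13 or 14 (adjusted p = 0.053 to 0.064) or with zeros kept (0.070).

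Clones similar to the lysosomal enzyme palmitoyl-protein thioesterase 1 (PPT1) were 2.90-fold higher (1RT63G21_A_D11, adjusted p = 0.0020 from limma) and 2.17-fold higher (tcad0003.m.13, adjusted p = 0.020, against 0.099 without female 15 and 0.11 with zeros kept). In the second of these clones female 14, at 4.16, lay inside the range of the maturing females (3.92 to 5.32), and the other post-vitellogenic females were at 2.19 or less. Apolipoprotein C-I showed the same female apart: maturing females ran from 11.7 to 22.5 (median 15.1), against 4.17, 19.9, 4.23 and 4.82 in females 13, 14, 15 and 31. This clone was not called (2.39-fold, adjusted p = 0.058), and passed without female 14 (adjusted p = 4.1e-05 from limma).

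**Figure D3:**
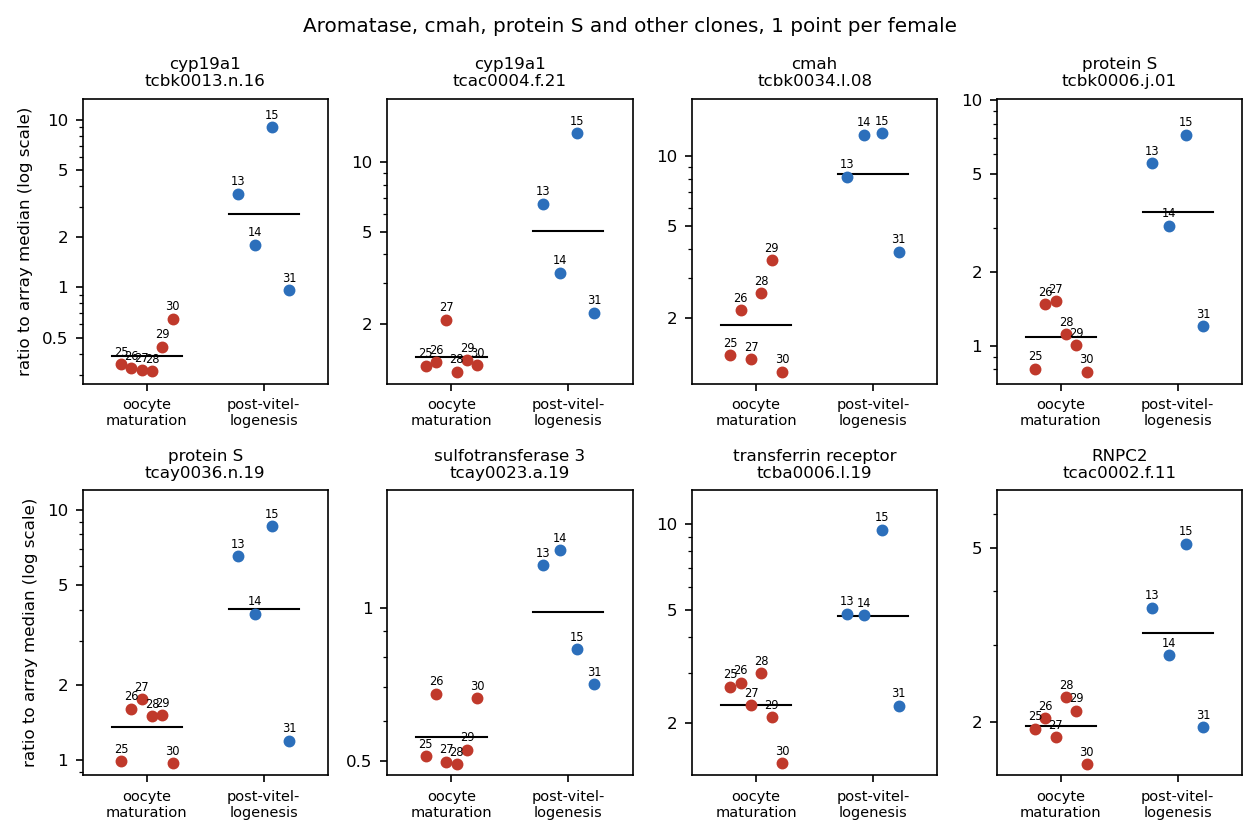
The ratio to the array median (log scale) is plotted for 8 clones with lower means in oocyte maturation, 1 point per female with her number, for oocyte maturation on the left and post-vitellogenesis on the right, and the bar is the geometric mean. Female 31 is the lowest post-vitellogenic female in each panel, and the transferrin receptor and RNPC2 clones were not called (adjusted p = 0.065 and 0.071).

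Kinases and regulators of transcription were higher for 9 of 9 clones without overlap in any, with a median log2 difference of 1.22. Over all clones 1.66% were called higher, and 2.78% lay above without overlap. All 9 are of the study's second cluster, whose 43 tested clones were all higher. SGK2 belongs to the family named serum/glucocorticoid-regulated kinases, which acts on ion channels and transporters. Its clone 1RT164G02_C_D01 ran from 3.09 to 5.503 (median 4.34) in maturing females, against 0.991, 1.21, 1.01 and 0.861 in females 13, 14, 15 and 31 (4.18-fold, adjusted p = 1.7e-06 from limma). As with the hormones, female 29 was the lowest maturing female.

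Clones tcbk0035.k.02 and 1RT148E11_A_C06 are similar to FOXO3, a forkhead factor of stress and survival signalling. The increase was 2.84-fold in the first (limma, adjusted p = 1.4e-04), against 2.20-fold in the other clone (5.3e-04). The ETS2-like clone, of a transcription factor downstream of MAP kinase signalling, ran from 2.09 to 4.78 (median 2.80) in maturing females, against 1.28, 1.19, 1.13 and 1.15 in females 13, 14, 15 and 31 (2.49-fold, adjusted p = 0.0011). The GADD45B-like clone, of a stress-induced growth arrest protein, was 2.34-fold higher (adjusted p = 9.2e-04 from limma). The second SGK2 clone (tcba0018.p.09) was 1.65-fold higher (adjusted p = 0.0026), and further clones of this role were 1.95-fold and 1.99-fold higher.

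Of 15 clones for cytoskeleton, adhesion and matrix, 11 were higher and 4 were lower (median log2 difference 0.88). The shares over all clones tested were 1.66% higher and 2.15% lower. Dystrophin (1RT38L12_D_F06), which ties the actin cytoskeleton to the matrix, ran from 2.85 to 6.12 (median 5.0001) in maturing females, against 0.693, 0.726, 0.498 and 0.636 in females 13, 14, 15 and 31 (7.45-fold, 95% interval 5.70 to 9.75, adjusted p = 1.45e-07 from limma). Glypican-3, which carries heparan sulfate at the cell surface, was 3.67-fold higher (adjusted p = 6.7e-05), and in both clones female 29 was the lowest maturing female. The post-vitellogenic ratios of glypican-3, 0.179 to 0.216, lay close to the lowest of any tested clone on those arrays (0.103 to 0.126). Its fold ran from 2.77 to 4.16 over the settings.

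The smoothelin and caldesmon clones were higher as well. Smoothelin (tcbk0048.o.16) ran from 2.72 to 5.59 (median 3.71) in maturing females, against 0.804, 1.13, 0.972 and 1.39 in females 13, 14, 15 and 31 (3.57-fold, adjusted p = 4.7e-05 from limma). Caldesmon (tcay0013.c.09), which regulates actin and myosin in smooth muscle, ran from 1.30 to 2.83 (median 2.13) in maturing females, against 0.583, 0.917, 0.587 and 0.681 (2.94-fold, adjusted p = 9.2e-04). The stages did not overlap in either. A clone whose best match was a collagen-like protein was 2.65-fold higher (adjusted p = 0.0011 from limma). The second dystrophin clone (tcbk0050.j.02) was 1.35-fold higher, at 0.725 to 0.900 in maturing females, against 0.548 to 0.673 in post-vitellogenic females (adjusted p = 0.040). That call was lost with quantile normalization (adjusted p = 0.057) and without any one female except 27, 30 and 31 (0.064 to 0.20). The other clones of this role that were higher ranged from 1.51-fold to 2.17-fold. Among them, intermediate filament ON3 overlapped between the stages and lost its call without any one of 7 females (adjusted p = 0.057 to 0.19), LTBP2 without female 13 or 15 (0.070 to 0.092), and both of these, claudin-11 and PTPRF with zeros kept (0.050 to 0.16).

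Both clones similar to tropomyosin 4, an actin-binding protein, were lower. Clone tcay0031.j.13 ran from 2.38 to 3.86 (median 2.94) in maturing females, against 5.09, 7.10, 6.50 and 3.87 in females 13, 14, 15 and 31 (1.82-fold lower, adjusted p = 0.011 from limma, and 0.059 without female 15). Clone tcaa0001.g.20 was 1.63-fold lower (adjusted p = 0.032), a call that was lost without female 25, 27, 29, 13, 14 or 15 (0.052 to 0.13). The HSP47-like clone, of the chaperone of collagen, ran from 1.19 to 1.38 (median 1.26) in maturing females, against 1.80, 2.26, 2.33 and 1.52 (1.53-fold lower, adjusted p = 0.016, and 0.065 to 0.088 without female 14 or 15). Junctophilin-2, which joins the plasma membrane to the endoplasmic reticulum, was 1.47-fold lower (adjusted p = 0.048), a call lost without any one female except 30 and 31 (0.066 to 0.22), with quantile normalization (0.19) and with an intensity trend and robust estimation (0.067). With zeros kept, the calls of both tropomyosin 4 clones and of junctophilin-2 were lost (adjusted p = 0.070, 0.11 and 0.10).

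Among the roles, that of RNA, translation, folding and mitochondria changed the least: 1 of 11 clones was higher, 3 were lower and 7 were not called (median log2 difference -0.46). The shares over all clones tested were 1.66% higher and 2.15% lower. The median size of the log2 difference was 0.51 in this role, against 0.145 over all clones. All but the 1 higher clone are of the study's first cluster. The lower ones were similar to ribosomal protein L4 (1.62-fold, adjusted p = 0.029 from limma), adenylate kinase 2, a mitochondrial enzyme that balances adenine nucleotides (1.44-fold, 0.033), and mitochondrial ribosomal protein S30 (1.42-fold, 0.040). Each overlapped through female 31, who lay at 3.29, 5.77 and 1.16, against highest ratios of 3.45, 5.86 and 1.19 in maturing females. Each was lost without several single females (6, 7 and 8 of the 10, adjusted p = 0.054 to 0.18), always including 13, 14 and 15, and with zeros kept (0.070 to 0.093). That of adenylate kinase 2 was also lost with quantile normalization (0.11) and with an intensity trend and robust estimation (0.051). The 1 higher clone was similar to TIM14, of the mitochondrial protein import machinery (1.56-fold, adjusted p = 0.0085 from limma, and 0.052 without female 15).

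The 7 that were not called had means 1.15-fold to 1.63-fold lower. They were similar to RNPC2, a splicing cofactor (adjusted p = 0.071 from limma), aminomethyltransferase of the glycine cleavage system (0.065), the chaperonin subunit CCT-theta (0.052), the cold-shock domain protein YB-1 (0.38), the initiation factor eIF-2-beta (0.32), the exosome subunit RRP40 (0.29) and a subunit of NADH dehydrogenase (0.40). Without female 31 the first 3 of these passed (adjusted p = 0.0070, 0.0018 and 0.028). For RNPC2, females 13, 14, 15 and 31 had ratios of 3.66, 2.85, 5.12 and 1.95, and the maturing females ran from 1.60 to 2.28.

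**Figure D4:**
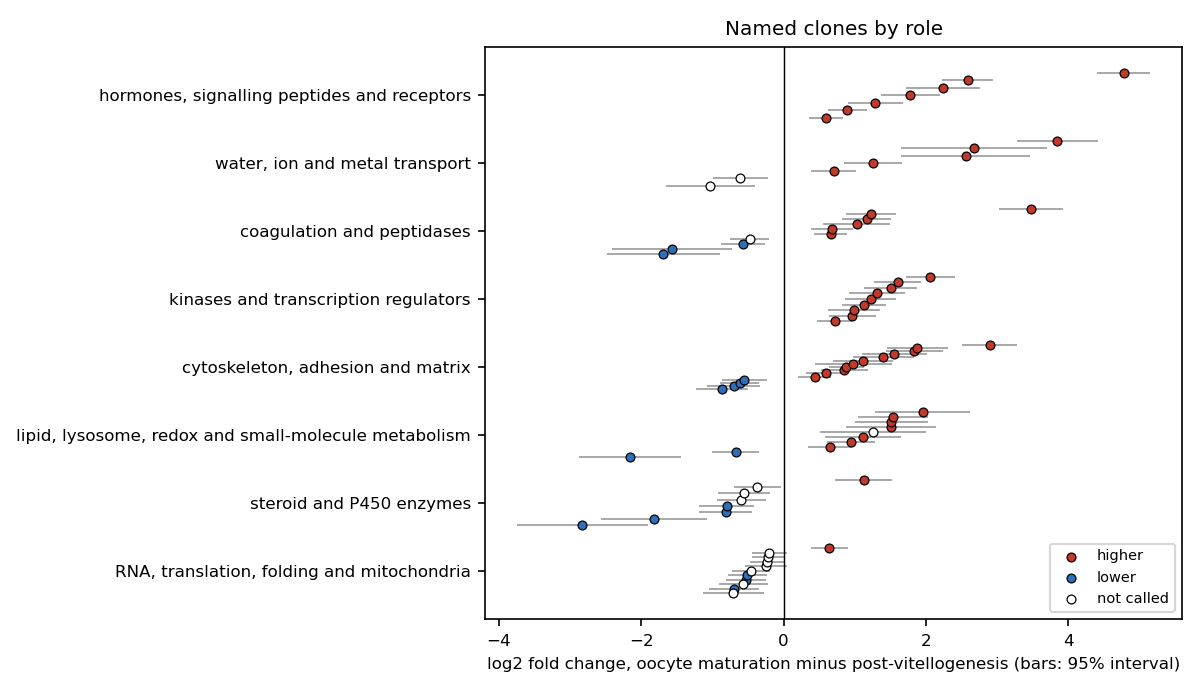
Each point is the log2 difference (oocyte maturation minus post-vitellogenesis) of 1 of the 77 named clones with a role, with its 95% interval from limma, in rows by role. The 7 hormone and signalling clones and the 9 kinase and transcription clones, all of the study's second cluster, were called higher. Only the steroid and RNA roles have a median below 0.

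The 12 clones without a role mostly have no protein match. Of these, 8 were higher, 1 lower and 3 not called (median log2 difference 0.71), against 1.66% higher and 2.15% lower over all clones. The first among them, 1RT41I23_A_E12, ran from 2.71 to 4.65 (median 4.31) in maturing females, against 1.12, 1.47, 1.06 and 1.08 in females 13, 14, 15 and 31 (3.35-fold, adjusted p = 1.5e-05 from limma). The RNF24-like clone, of a ring finger protein, was 2.12-fold higher (adjusted p = 0.0022). Of the 9 called clones here, 3 lost their call without female 15 and 4 with zeros kept.

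Of the 236 called clones outside the study's lists, 79 were higher and 157 were lower. Over all clones tested, listed or not, 1.66% were called higher and 2.15% lower. The study listed only the clones of its most marked clusters, most of them higher in oocyte maturation. The split of the 236 therefore depends on that choice, and the study may have called some of them too. The largest rise among those with no overlap was that of tcba0019.d.09, with 17.8, 36.9, 46.6, 24.4, 0.757 and 2.13 in maturing females 25 to 30, against 0.417, 0.622, 0.459 and 0.654 in females 13, 14, 15 and 31. The maturing females fell apart into 4 with ratios of 17.8 or more and females 30 and 29, at 2.13 and 0.757, of whom 29 lay just above the highest post-vitellogenic female. It was 19.5-fold higher (95% interval 5.16 to 73.9, adjusted p = 0.015 from limma), 32.9-fold without female 29, and not called without female 15 (adjusted p = 0.058), with zeros kept (0.12), by Welch's test (0.17) or with an intensity trend and robust estimation (0.11). Clone tcbk0045.o.06 ran from 0.922 to 8.19 (median 2.30) in maturing females, against 0.408, 0.430, 0.399 and 0.450 in females 13, 14, 15 and 31 (5.85-fold, adjusted p = 0.0020, against 0.060 with zeros kept and 0.098 by Welch's test).

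The largest falls of this kind were those of tcaa0002.m.12 and tcac0001.h.06. The first ran from 0.553 to 1.09 (median 0.890) in maturing females, against 2.22, 2.50, 3.00 and 2.03 in females 13, 14, 15 and 31 (2.94-fold lower, adjusted p = 1.2e-04 from limma). The second ran from 0.435 to 0.849 (median 0.584) in maturing females, against 0.963, 1.63, 2.53 and 1.78 (2.71-fold lower, adjusted p = 0.0026, and 0.18 by Welch's test). Female 31, at 2.03 and 1.78, lay well above the maturing females in both.

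For 8 genes or matches the array held a pair of clones, and the difference between their log2 changes was tested over the 10 females (exact permutation test, two-sided, adjusted over the 8 pairs, smallest possible p = 0.0095). The pairs of dystrophin, SGK2 and FOXO3 differed in the size of the rise, by 2.46, 1.34 and 0.37 on the log2 scale (adjusted p = 0.025 each). The aromatase clones differed by -1.002, the fall being larger in tcbk0013.n.16 (adjusted p = 0.038). The PPT1 pair differed by 0.42 (adjusted p = 0.076), and the pairs of protein S (-0.12), tropomyosin 4 (-0.16) and aqp4 (0.12) had adjusted p of 0.37, 0.39 and 0.51 in the same exact permutation test. In the study's lists the clones of aromatase, of protein S and of aqp4 each share a UniGene sequence cluster. Those of SGK2, FOXO3 and tropomyosin 4 lie in different ones. The PPT1 clones do so too but share an assembled sequence, and the dystrophin clones have no UniGene cluster. Clones with 1 match may be different gene copies, and their identity was not tested. Without 1 of females 13, 14 and 15 the pairs of dystrophin, SGK2 and FOXO3 kept the smallest p that 3 against 6 females allow. It was 0.024 in the exact permutation test (adjusted p = 0.0635). With 1 female left out, the aromatase pair passed only without female 30 or 31 (difference -1.18 to -0.84 over the 10 females left out).

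The females of a stage were not alike. Each female was left out of the limma fit in turn, and her position was then read among the clones called without her, with 1 at the mean of the others of her stage and 0 at the mean of the other stage. Among 256 clones called lower without female 31, she lay nearer the mean of the maturing females in 156 (60.9%), with a median position of 0.39. Among 151 clones called higher without her this was so in 36 (23.8%).

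Female 14 was nearer the maturing females in part of the higher clones and in hardly any of the lower ones. Among 96 clones called higher without her, 28 (29.2%) had her nearer the maturing females, and among 51 called lower, 1 (1.96%). Her share among higher clones was near that of female 31 (23.8%). Females 13 and 15 had 0% and 1.49% there, and 15.8% and 15.4% among lower clones. Each share is over a different list of clones. The lists for females 13 and 15 were called with 14 and 31 in the fit, so the shares are not directly comparable. Among the 72 listed clones that were called, female 14 lay inside or beyond the maturing range in 6 of 55 higher clones and 0 of 17 lower ones, and female 31 in 0 of 55 and 9 of 17. Females 13 and 15 did so in 0 of the 72. Maturing females also lay inside or beyond the post-vitellogenic range. Female 26 did so in 4 of the 55 and 4 of the 17, and female 29 in 3 and 3. The counts were 2 and 0 for female 25, 0 and 3 for 27, 0 and 2 for 28, and 0 and 1 for 30. These clones were listed and called on these same arrays, and the counts were not made over all called clones. No sample label describes the ovary of female 31 as different. Her number comes after those of the maturing females, while 13, 14 and 15 come before them, and the labels do not say what the numbers stand for.

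Among the maturing females, female 30 lay nearer the post-vitellogenic mean in 187 of 354 clones called lower without her (52.8%), and female 29 in 37 of 122 called higher (30.3%). Female 25 did so in 32 of 136 called higher (23.5%) and 3 of 102 called lower (2.94%). For female 26 the counts were 18 of 116 higher (15.5%) and 34 of 139 lower (24.5%). The array of female 30 also had the most spots at 0 and the lowest correlations with her stage. The part of these array properties in her position was not tested. The number of calls was 530 without female 30 and 106 without female 15. Without females 14 and 31 together, left out after seeing the data, 78 clones were higher and 58 lower.

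**Figure D5:**
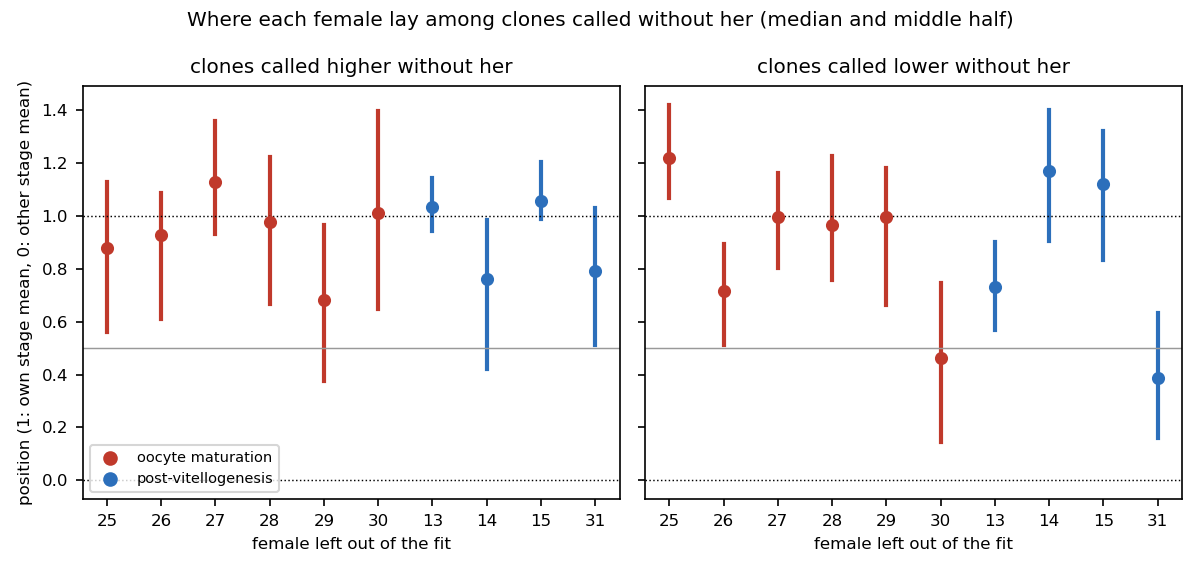
For each female left out of the fit, the point is her median position (1 at the mean of her own stage, 0 at that of the other stage) and the line the interquartile range, among clones called higher (left panel) and lower (right panel) without her. Females 31 and 30 have medians of 0.39 and 0.46 among lower clones, and females 29, 14 and 31 have 0.68, 0.76 and 0.79 among higher ones.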

How the data were processed

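Full ovarian tissue of 10 females was compared, 6 in oocyte maturation and 4 in post-vitellogenesis, with stages taken from the sample labels. The deposited values are the authors' ratio of each spot's signal to the median of the array. Per the study's methods, spots whose vector oligonucleotide signal was under 3 times background were excluded, the signal was corrected with that oligonucleotide for the DNA in the spot, and it was then divided by the array median. A membrane carried the cDNA of 1 female, and nothing was pooled. An exact 0 has no log, so clones at 0 on any of the 10 arrays were left out of the fit. 0 clone names matched the trout gene table used for names, so no sequence is shown. The number of arrays limits the precision.

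Log2 ratios of 8084 clones were fitted with limma 3.58.1 (lmFit and eBayes, R 4.3.3) as oocyte maturation minus post-vitellogenesis, with Benjamini-Hochberg adjustment over all clones and a threshold of 0.05. Folds are ratios of geometric means. The methods used SAM, so a SAM-style test with 100 permutations was an alternative, beside Welch's test, other scalings, pseudocounts, filters, array weights and each female left out. The fit was tested on simulated data. Named clones are, per role, up to 5 higher and 5 lower called clones with the largest change and every member not called, both clones of each pair, the genes the study took to real-time PCR, and the 2 largest rises and 2 largest falls without a name among called clones free of overlap. Results of 2 clones that this rule names are not reported here. Members and lists were chosen with earlier results of these data known. Figures were drawn with matplotlib 3.10.9.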

Additional observations from a re-analysis of the deposited data

Results flagged for a closer look

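In 93 clones the highest or lowest female of each stage was set against the others of her stage by Dixon's test on the log2 ratios. Of the 186 groups, 15 passed its 95% value, where chance flags about 1 in 20. Each value below is a ratio to the array median.

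Female 14 stood above the other post-vitellogenic females in 5 clones. Her ratios were 3.98 and 3.02 in the aqp4 clones tcbk0036.e.03 and tcbk0056.f.03, 19.9 in apolipoprotein C-I, and 1.47 and 1.51 in 1RT41I23_A_E12 and 1RT35E10_C_C05, which have no protein match. Female 15 stood below the others of post-vitellogenesis for isotocin (0.608) and for 1RT85J04_D_E02, also without a match (1.60).

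Female 29 stood below the other maturing females in 4 clones, at 2.85 for dystrophin 1RT38L12_D_F06, 0.380 for glypican-3, 0.638 for RGS18 and 2.63 for slc26. Female 27 was low for dystrophin tcbk0050.j.02 (0.725) and high for cyp19a1 tcac0004.f.21 (2.09). Female 28 was low for glutathione peroxidase 4 (0.943) and high for 1RT31H12_D_D06, without a match (2.26). The part of array quality in these values was not tested.

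Water spots, which carry no clone and enter no comparison, were mostly listed at 0. On 8 of the 10 arrays 1 water spot was above 0, which concerned 5 of the 64 spots, with a median ratio of 1.78 (range 1.49 to 2.02). The post-vitellogenic ratios of avt, slc26 and cf5 lay below this level on all 4 arrays. The median ratio over all tested clones, 1.04 in either stage, lay below it as well, so this is not particular to those clones.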

How the results depend on the processing

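Against 308 calls (134 higher and 174 lower, 56.5% lower), an adjusted p under 0.007 gave 70 (47 and 23, 32.9% lower), a change of at least 2-fold 72 (50 and 22, 30.6%), Welch's test 39 (28 and 11, 28.2%) and zeros kept with a pseudocount 108 (61 and 47, 43.5%). Array weights gave 979 (365 and 614), and leaving out females 14 and 31, chosen after seeing the data, 136 (78 and 58, 42.6%). With each female left out the calls ran from 106 (without female 15) to 530 (without female 30), the higher clones from 67 to 176, the lower clones from 39 to 354 and the share lower from 34.7% (without female 14) to 66.8% (without female 30). Of the 308 clones, 34.1% were among those called without female 15 and 99.4% among those called without female 30. The other settings kept the total within 1.5 times: SAM-style test 317, intensity trend and robust estimation 285, quantile normalization 240, centring 346, pseudocount 320, clones above 0 on all 13 arrays 306, mean ratio of at least 0.5 309, and 3 stages fitted together 371. The 459 clones free of overlap became 480 with zeros kept and 479 with quantile normalization. Leaving out a female can only add to them, and gave 512 to 946.

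Of the 93 clones followed one by one, 17 were not called in the main fit and had no call to lose. Of the others, 53 lost their call by Welch's test (applied to single clones after seeing the data) and 35 with zeros kept. Without female 15, 13 or 14 the losses were 25, 19 and 14, and the cause was not tested. These clones are above 0 on all 10 arrays. Keeping zeros adds a pseudocount, which alone lost 1 call, and brings other clones into the adjustment and the spread shared between clones. The direction turned in 1 case, a clone with no match that was not called (tcbk0044.e.02), with a log2 difference of -0.024 without female 31 and 0.20 with her. With each female left out, the pair differences ran from 2.39 to 2.61 for dystrophin, 1.20 to 1.44 for SGK2, 0.34 to 0.43 for FOXO3, 0.33 to 0.52 for PPT1 (passing without female 25, at 0.50) and -1.18 to -0.84 for cyp19a1. No paired analysis was possible because, per the study's methods, each female was killed and sampled at 1 stage. With 4 and 6 arrays the spread between females limits what can be called, and an unadjusted p under 0.05 was reached by 1434 clones.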
